A study of Bos taurus with 12 samples.

Results

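The genes described here carry out the making of fatty acids and their packing into triglyceride: SREBF1, ACACA, FASN, SCD and DGAT1. They were chosen by name, each with its Ensembl identifier. The counts used here cover 27570 identifiers for every calf. SCD, the desaturase that makes oleate from stearate, is not analysed because the identifier chosen for it was not among these. The results therefore cover 4 of the 5 genes chosen, SREBF1 (ENSBTAG00000007884), ACACA (ENSBTAG00000017567), FASN (ENSBTAG00000015980) and DGAT1 (ENSBTAG00000026356), and all 4 had enough counts to be tested. The gene names come with the choice of genes, since the count tables give identifiers alone and 0 of the 27570 could be matched to a symbol here.

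The study compared 6 Holstein dairy calves kept under postnatal heat stress with 6 kept with postnatal cooling, from birth until weaning, in group housing. Liver was taken by biopsy at 42 days of age and its RNA was sequenced, 1 library per calf. No genotype, sex, sire or batch is given for the calves, and the labelled tissue could not be checked against marker genes because identifiers could not be matched to names. Total counts ran from 22910846 to 32240168 per library. Calf numbers only name the libraries of a group.

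Fatty acid synthesis starts in the cytosol from acetyl-CoA. Acetyl-CoA carboxylase, encoded by ACACA, makes malonyl-CoA, and fatty acid synthase, encoded by FASN, joins these units into palmitate. SREBF1 encodes the transcription factor SREBP1, which insulin raises and which activates lipogenic genes including ACACA, FASN and SCD. DGAT1 encodes the enzyme that adds the last acyl chain to make triglyceride. In cattle adipose tissue is the main site of fatty acid synthesis, and the liver makes little of its own fat.

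The libraries of cooled calves 2 and 3 resembled each other closely. Their biological coefficient of variation, the part of the difference between libraries beyond counting error, was 0.0571. In the 65 other pairs of libraries it lay between 0.197 and 0.391. The series counts 6 calves per group and the pair was kept as separate calves. Group differences are also given with the pair summed into 1 library and with the pair left out, because FASN turned on these libraries. The p-values measure the spread between these libraries, and they are too small if the pair came from 1 animal.

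No difference between the groups in the 4 genes passed correction for the number of genes tested. With edgeR's quasi-likelihood test, 0 of the 4 passed a Benjamini-Hochberg adjusted p of 0.05, where 0% of the 14924 tested genes did. At an unadjusted p under 0.05, 1 of the 4 was lower in heat-stressed calves (FASN), against 4.28% of all tested genes, and 0 were higher, against 5.09%. In either direction 9.37% of tested genes passed it (1399), a count that single calves moved to 841 (without heat-stressed calf 6), 857 (without calf 1) or 2578 (without calf 3). The groups overlapped in all 4 genes, and 0.389% of tested genes had groups that did not. DESeq2 called 0 of the 4 and 0.0615% of the genes it tested. In every one of the 4 genes the fitted log2 fold change, heat-stressed over cooled, was below 0, as it was for 49.6% of tested genes. Levels below are CPM, a gene's counts relative to all counts of its library, after trimmed-mean (TMM) scaling. CPM takes no account of gene length, so levels were not compared between genes.

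**Figure D1:**
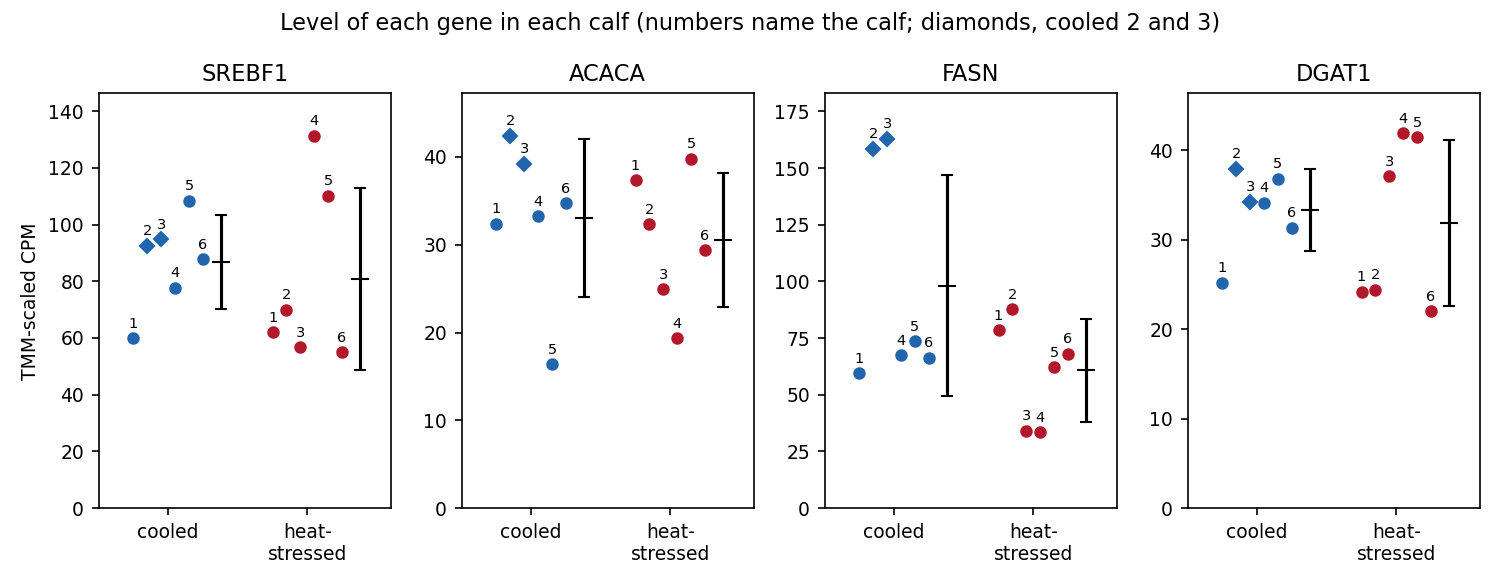
TMM-scaled CPM (linear vertical axis from 0) of SREBF1, ACACA, FASN and DGAT1 in each of 6 cooled and 6 heat-stressed calves, with the group mean and SD as a black bar. Diamonds mark cooled calves 2 and 3, which stand at 158.6 and 162.9 CPM of FASN, while the highest of the other 10 calves is at 87.6 CPM.

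SREBF1, the regulator, stood in the cooled calves at 59.8, 92.5, 94.7, 77.8, 108.4 and 87.7 CPM (calves 1 to 6). In the heat-stressed calves it stood at 62.1, 70.0, 56.8, 131.2, 110.2 and 54.9 CPM. The heat-stressed calves lay on both sides of the cooled ones, with calves 4 and 5 above every cooled calf and calves 3 and 6 below every cooled calf. The cooled mean was 86.8 ± 16.6 CPM and the heat-stressed mean 80.8 ± 32.0 CPM (SD, n = 6 each). The log2 fold change was -0.10 (SE 0.226, 95% interval -0.58 to 0.38, edgeR adjusted p = 0.862). The interval spans levels under heat stress from 0.667 to 1.30 of those in cooled calves. Without heat-stressed calf 4, the highest of all calves, the log2 fold change was -0.29 (edgeR adjusted p = 0.471).

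ACACA, which makes the malonyl-CoA that FASN uses, stood at 32.4, 42.4, 39.2, 33.2, 16.4 and 34.8 CPM in cooled calves 1 to 6. It stood at 37.4, 32.3, 24.9, 19.4, 39.8 and 29.4 CPM in heat-stressed calves 1 to 6. All 6 heat-stressed calves lay within the range of the cooled calves, whose lowest value was that of calf 5. The cooled mean was 33.1 ± 9.01 CPM and the heat-stressed mean 30.5 ± 7.66 CPM (SD, n = 6 each). The log2 fold change was -0.12 (SE 0.217, 95% interval -0.58 to 0.35, edgeR adjusted p = 0.833). With cooled calves 2 and 3 left out it was 0.06, on the other side of 0.

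FASN, which builds palmitate, showed the widest difference of the 4 between the group means. In the cooled calves it stood at 59.6, 158.6, 162.9, 67.5, 73.7 and 66.4 CPM (calves 1 to 6). In the heat-stressed calves it stood at 78.6, 87.6, 34.2, 33.6, 62.3 and 68.2 CPM. Cooled calves 2 and 3 were the highest and heat-stressed calves 3 and 4 the lowest, and the other 8 calves of both groups overlapped between 59.6 and 87.6 CPM. The cooled mean was 98.1 ± 48.7 CPM and the heat-stressed mean 60.7 ± 22.5 CPM (SD, n = 6 each). The level under heat stress was 0.619 of that in cooled calves (95% interval 0.390 to 0.984), a log2 fold change of -0.69 (SE 0.314). The unadjusted p was 0.0434 and the adjusted p 0.526 in edgeR, and the two-sided exact permutation test of log2 CPM gave p = 0.132. In edgeR the unadjusted p rose to 0.0617 with upper-quartile scaling and 0.0741 with no scaling beyond library size. It was 0.0532 in limma-voom and 0.0557 with sample quality weights added. In the other fits of all 12 libraries it stayed under 0.05, with 0.0258 in DESeq2 the lowest.

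The FASN difference rested on the alike pair of cooled libraries. With calves 2 and 3 summed into 1 library the log2 fold change was -0.50 (95% interval -1.15 to 0.16, edgeR unadjusted p = 0.127). With both left out it was -0.14 (95% interval -0.70 to 0.42, edgeR unadjusted p = 0.600). The exact permutation test gave p = 0.242 and 0.467 in these settings. For SREBF1, ACACA and DGAT1 in turn the log2 fold change was -0.08, -0.05 and -0.04 with the pair summed, and -0.05, 0.06 and -0.0023 with it left out. Medians of FASN, which the pair moves less, were 70.6 CPM in cooled and 65.2 CPM in heat-stressed calves. Leaving out cooled calf 2 or calf 3 alone gave an edgeR unadjusted p for FASN of 0.125 and 0.131. Leaving out heat-stressed calf 3 or calf 4, the low calves, also took the unadjusted p above 0.05, to 0.0923 and 0.0912, as did leaving out heat-stressed calf 5 (0.0595) or calf 6 (0.0503).

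The height of FASN in the pair was unusual for these libraries. The lower of the pair was 1.81 times the highest of the other 10 calves. Both libraries lay above all other calves in 756 of the 14924 tested genes (5.07%), but only 9 of the 14923 other tested genes (0.0603%) showed as wide a gap. For ACACA the lower of the pair was 0.986 times the highest other calf, for DGAT1 0.817 times and for SREBF1 0.705 times. A ratio at least as high was found in 5.88% of the other tested genes for ACACA, 22.2% for DGAT1 and 39.8% for SREBF1. In none of these genes did both libraries of the pair lie above all other calves, though ACACA came near it. These shares describe the libraries and are no test.

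**Figure D2:**
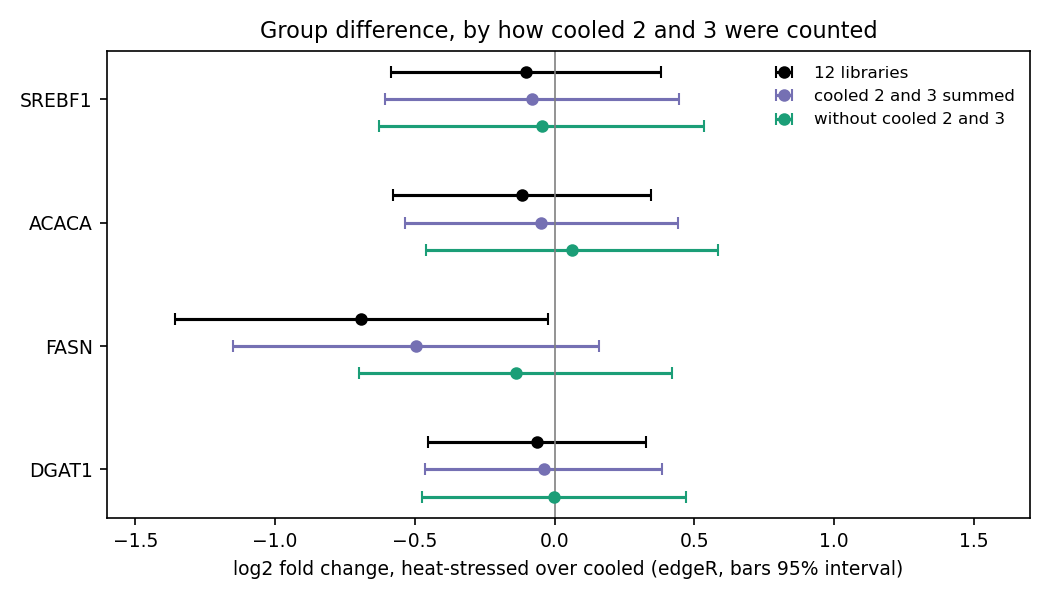
Log2 fold change of each gene, heat-stressed over cooled (horizontal axis, edgeR, bars are 95% intervals), with all 12 libraries, with cooled calves 2 and 3 summed into 1 library and with both left out. FASN moves from -0.69 to -0.50 and -0.14, while SREBF1 and DGAT1 lie between -0.10 and -0.0023 in all 3 fits.

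DGAT1, which completes triglyceride, stood at 25.2, 37.98, 34.3, 34.2, 36.8 and 31.4 CPM in cooled calves 1 to 6. It stood at 24.2, 24.4, 37.1, 41.9, 41.5 and 22.1 CPM in heat-stressed calves 1 to 6. The heat-stressed calves fell into a high and a low set of 3 with no calf between, and among the cooled calves only calf 1 was low. The cooled mean was 33.3 ± 4.58 CPM and the heat-stressed mean 31.9 ± 9.29 CPM (SD, n = 6 each). The log2 fold change was -0.06 (SE 0.183, 95% interval -0.45 to 0.33, edgeR adjusted p = 0.895). Leaving out heat-stressed calf 1, 2 or 6 turned the sign, to 0.0047, 0.0027 and 0.023. A change of 2-fold either way lay outside the 95% interval for SREBF1, ACACA and DGAT1, as for 82.9% of tested genes. For FASN a 2-fold decrease under heat stress lay inside the interval and a 2-fold increase outside it.

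The low and high sets of DGAT1 went with a measure of the whole library. The 4 calves with DGAT1 between 22.1 and 25.2 CPM, cooled calf 1 and heat-stressed calves 1, 2 and 6, had a most abundant gene that held 8.07% to 9.82% of the library. In the other 8 calves, with DGAT1 between 31.4 and 41.9 CPM, the most abundant gene held 4.64% to 7.03%. That gene was ENSBTAG00000017121 in 11 libraries and ENSBTAG00000022120 in heat-stressed calf 5. SREBF1 ran from 54.9 to 70.0 CPM in the same 4 calves and from 56.8 to 131.2 CPM in the other 8, so its ranges overlapped, with heat-stressed calf 3 the low exception. The part of the most abundant gene's share in the levels of DGAT1 and SREBF1 was not tested. How many other genes split the calves in the same way was not counted, but SREBF1 ranked only 1678 of 8523 genes in likeness to DGAT1. Over all genes, the biological coefficient of variation was 0.207 to 0.231 among heat-stressed calves 1, 2 and 6. Between these and heat-stressed calves 3, 4 and 5 it was 0.331 to 0.391. Cooled calf 1 was closest to cooled calf 6 (0.197). In bulk tissue, fewer cells of a type and less RNA per cell cannot be told apart.

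**Figure D3:**
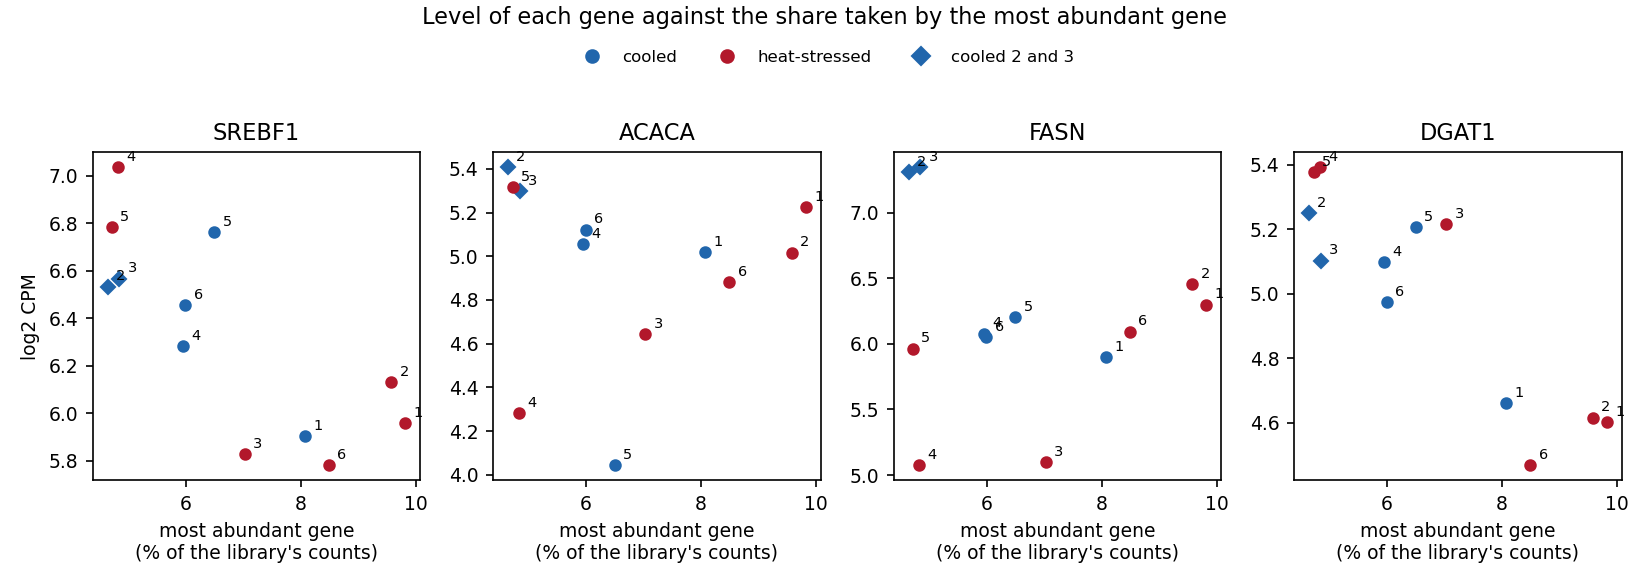
Log2 CPM of each gene (vertical axes, each to its own scale) against the percent of the library's counts taken by its most abundant gene (horizontal axes) in 12 calves. The 4 calves above 8% are the lowest in DGAT1, and in FASN they lie among the other calves.

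Whether the genes varied together from calf to calf was asked over the 6 pairs of the 4 genes, with log2 CPM of all 12 calves. SREBF1 and DGAT1 had a Pearson r of 0.77 (permutation p = 0.00466, adjusted over 6 pairs 0.0280; Spearman rho = 0.74, permutation p = 0.00765). DGAT1 lay in separate sets, so this value in part sets 4 low calves against 8 high ones, and no relation is called from it. Within the 8 calves of the high set r was 0.47 (exact permutation p = 0.242), but that split was made on DGAT1 and narrows its range. Heat-stressed calf 3, low in SREBF1 and high in DGAT1, is in that high set and stood off the others. Without it r over 11 calves was 0.94 (permutation p adjusted over 6 pairs 0.00018), and r within the high set without it was not computed. Without the calves farthest from the median of SREBF1, heat-stressed calves 4 and 6, it was 0.65 (permutation p = 0.0474, adjusted 0.142). Leaving out cooled calf 1, 2 or 3 or heat-stressed calf 4, 5 or 6 alone also took the adjusted p above 0.05. In these settings r lay between 0.72 and 0.77. It was 0.87 within the 6 cooled and 0.74 within the 6 heat-stressed calves (exact permutation p = 0.0333 and 0.124), and 0.77 with the alike pair summed (permutation p = 0.00853, adjusted 0.0512).

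ACACA and FASN, consecutive steps of the pathway, had r = 0.59 (permutation p = 0.0419, adjusted 0.126; Spearman rho = 0.45, permutation p = 0.146), which did not pass the correction over 6 pairs. Cooled calf 5, with the lowest ACACA of all calves and a middling FASN, stood off this relation. Without it r was 0.82 (permutation p adjusted over 6 pairs 0.0160). Without the calves farthest from the median of ACACA, cooled calf 5 and heat-stressed calf 4, r was 0.77 (adjusted permutation p = 0.0571), and with the alike pair left out it was 0.42 (permutation p = 0.198). Within the cooled calves r was 0.48 and within the heat-stressed calves 0.81 (exact permutation p = 0.346 and 0.0625).

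No relation was detected between SREBF1 and the synthesis enzymes that SREBP1 is known to activate. Its correlation was 0.07 with FASN (permutation p = 0.817, Spearman rho = 0.014) and -0.24 with ACACA (permutation p = 0.461, Spearman rho = 0.15). Heat-stressed calf 4 stood apart, with the highest SREBF1 of all calves (131.2 CPM), the lowest FASN (33.6 CPM) and nearly the lowest ACACA (19.4 CPM). Without it r was 0.45 with FASN and 0.03 with ACACA. Heat-stressed calf 3, low in SREBF1 (56.8 CPM), was also low in FASN (34.2 CPM). FASN and DGAT1 had r = -0.15 and ACACA and DGAT1 r = -0.23 (permutation p = 0.653 and 0.486). Without the 2 calves farthest from the median of the first gene, r was 0.46 for SREBF1 with FASN, -0.02 for SREBF1 with ACACA, -0.59 for FASN with DGAT1 and 0.30 for ACACA with DGAT1. An r near 0 over 12 calves does not show that the genes are unlinked.

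**Figure D4:**
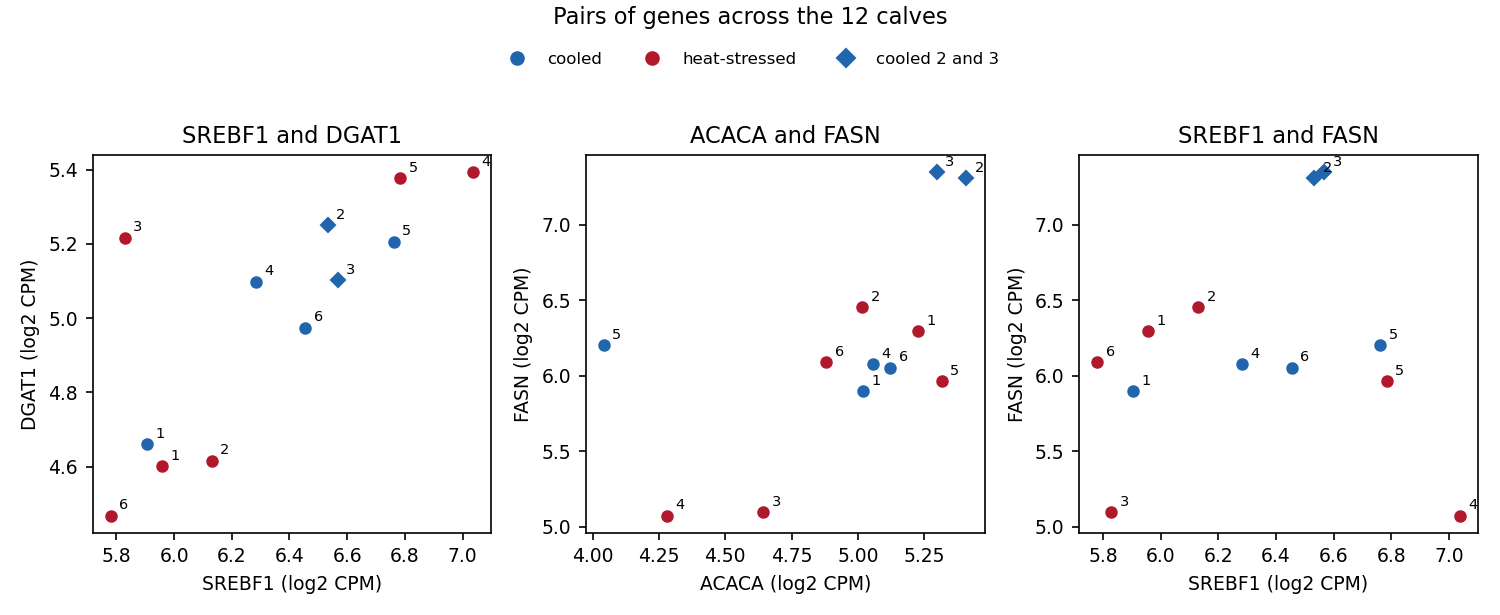
Log2 CPM of SREBF1 against DGAT1, ACACA against FASN and SREBF1 against FASN in 12 calves, coloured by group, with diamonds for cooled calves 2 and 3. SREBF1 and DGAT1 lie on a rising band (r = 0.77) with heat-stressed calf 3 off it, and heat-stressed calf 4 is at the bottom right of SREBF1 against FASN.

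These correlations were set beside those of the other liver genes. Of 8523 genes with a mean of at least 10 CPM, DGAT1 ranked 266 in likeness to SREBF1, while SREBF1 ranked 1678 in likeness to DGAT1: many other genes followed DGAT1 more closely. ACACA ranked 111 in likeness to FASN, and FASN 158 in likeness to ACACA. The genes whose mean r with all 4 was highest over the 12 calves were ENSBTAG00000013018 (mean r = 0.57, at 0.79 with SREBF1 and 0.73 with DGAT1) and ENSBTAG00000017721 (mean r = 0.55, at 0.65 with FASN and 0.56 with ACACA). Genes are not independent replicates, and these ranks are descriptions. With the alike pair summed, ENSBTAG00000013018 was again first (mean r = 0.51), and ENSBTAG00000003148 stood in the second place (mean r = 0.50).

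A ratio between genes of the same library does not depend on how libraries are scaled, so FASN was also set against each of the other genes. The ratio of FASN to ACACA in CPM was 1.84, 3.74, 4.15, 2.03, 4.49 and 1.91 in cooled calves 1 to 6. It was 2.10, 2.71, 1.37, 1.73, 1.57 and 2.32 in heat-stressed calves 1 to 6. Cooled calves 2, 3 and 5 were the highest, calf 5 by its low ACACA. The mean log2 ratio was 1.49 ± 0.607 (SD, n = 6) in cooled and 0.94 ± 0.369 (SD, n = 6) in heat-stressed calves, a difference of -0.56 (two-sided exact permutation p = 0.0909, adjusted over 3 ratios 0.273). The difference was -0.49 for FASN to SREBF1 and -0.55 for FASN to DGAT1 (exact permutation p = 0.314 and 0.258). With the alike pair summed the differences were -0.46 for FASN to ACACA, -0.35 for FASN to SREBF1 and -0.40 for FASN to DGAT1 (exact permutation p = 0.177, 0.498 and 0.413). With the pair left out the 3 differences were -0.31, -0.13 and -0.19 for ACACA, SREBF1 and DGAT1 in turn (exact permutation p = 0.376, 0.824 and 0.710). The ratio of FASN to DGAT1 ran from 0.801 in heat-stressed calf 4 to 4.75 in cooled calf 3. The ratio of SREBF1 to DGAT1 was narrower, from 2.28 to 2.94 in the cooled calves and, leaving aside heat-stressed calf 3 at 1.53, from 2.49 to 3.13 in the heat-stressed calves.

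FASN varied more between calves of a group than most genes of like abundance. The SD of its log2 CPM within groups was 0.633, higher than in 95.7% of the 2705 tested genes with a mean level within 2-fold of its own, whose median was 0.298. With the alike pair left out it was 0.434, higher than in 81.8%. Within the cooled calves the SD was then 0.126, where it had been 0.663, and in the heat-stressed calves it was 0.601. The SD within groups was 0.429 for SREBF1, 0.440 for ACACA and 0.338 for DGAT1, higher than in 79.6%, 83.2% and 63.9% of genes of like abundance. With the alike pair left out these shares were 83.0%, 85.3% and 66.3%, so that of FASN was then below those of SREBF1 and ACACA. SREBF1 had an SD of 0.295 in cooled and 0.530 in heat-stressed calves, DGAT1 0.213 and 0.428, and ACACA 0.488 and 0.385. The differences in SD between the groups were not tested. Reads per calf ran from 421 (ACACA in cooled calf 5) to 4500 (FASN in cooled calf 3), and at 421 reads counting error alone is 4.87%, far below these spreads.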

How the data were processed

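For each of 12 calves the authors deposited 1 table of whole-number counts per gene, without normalization. The submitters' processing notes name HISAT2, HTSeq and the build ARS-UCD1.2, with FastQC (0.11.7) and Trim Galore (0.4.4). No annotation release or strand setting is given in the sources used, so whether reads of overlapping or antisense genes were told apart is not known.

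Groups came from the treatment in the labels. In R 4.3.3 and edgeR 4.0.16, genes were kept with filterByExpr (14924 of 27570), scaled by TMM and compared with glmQLFit and glmQLFTest over the whole table, with Benjamini-Hochberg adjustment. A prior count of 2 went into log2 CPM. DESeq2 1.42.0 and limma 3.58.1 served as alternatives. Correlations and exact tests were run in Python 3.11.15 (numpy 2.4.6, scipy 1.17.1), with 100000 resamples for 10 or more calves. The smallest p of the exact test between 6 and 6 calves is 0.00216. The scripts were tested on simulated data.

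The genes and lists were chosen with earlier results of these data known. All members are named, and the genes most like them by mean r. The 6 pathway lists (68 genes) and 9 marker lists were not run, since 0 identifiers matched symbols. No sequence is printed, since none was in the tables used here. Chosen after the values were seen were leaving out the alike pair, either treatment of that pair in the spread, the FASN ratios, the correlations within the high set of DGAT1 and the comparison of the pair with the other calves.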

Additional observations from a re-analysis of the deposited data

Results flagged for a closer look

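For each of the 4 genes, the gap between the most extreme calf and its neighbour, over the range of the group, was set against Dixon's 95% critical value. With 12 libraries none of the 8 sets of 6 calves exceeded 0.625, but the near-equal FASN levels of cooled calves 2 and 3 leave little gap between them, so the pair could not be singled out there. With cooled calves 2 and 3 summed into 1 library, FASN in the cooled group did. The summed library stood at 161.8 CPM, and its gap to the nearest other calf was 0.860 of the group's range, where the critical value for 5 samples is 0.710. Of 12 distinct sets, the 8 with all libraries and the 4 cooled sets with the pair summed, 1 exceeded its value, and chance flags about 1 in 20.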

How the results depend on the processing

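The log2 fold changes of SREBF1 and FASN kept their sign in all 26 alternatives, and none of the 4 genes passed an adjusted p of 0.05 in any. SREBF1 ran from -0.29 to -0.01, ACACA from -0.25 to 0.06, FASN from -0.82 to -0.14 and DGAT1 from -0.25 to 0.02. With 1 calf left out at a time the ranges were -0.29 to -0.01, -0.25 to -0.01, -0.82 to -0.49 and -0.16 to 0.02. ACACA turned to 0.062 with both alike libraries left out. DGAT1 turned without heat-stressed calf 1 (0.0047), 2 (0.0027) or 6 (0.023). Over all genes edgeR called 0, DESeq2 13, and leaving out 1 calf gave 0 to 1, the 1 without heat-stressed calf 3. At unadjusted p under 0.05 there were 1399 genes, 4126 with limma-voom quality weights, 889 with the alike pair left out, and 841 to 2578 with 1 calf left out (857 without heat-stressed calf 1, 2578 without calf 3, 841 without calf 6). The cause was not tested.

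The r of SREBF1 and DGAT1 stayed positive throughout. It lost its adjusted p under 0.05 within the cooled calves (0.87), within the heat-stressed calves (0.74), with the alike pair summed (0.77) or left out (0.76), within the high set of DGAT1 (0.47), without the 2 farthest calves (0.65), and without cooled calf 1, 2 or 3 or heat-stressed calf 4, 5 or 6. With 1 calf left out it ran from 0.72 to 0.94. SREBF1 and FASN turned to -0.031 after group means were subtracted, -0.35 within the heat-stressed calves, -0.014 with the pair summed and -0.19 with it left out. With 1 calf left out it ran from -0.13 (without heat-stressed calf 3) to 0.45, and was -0.0045 and -0.025 without cooled calf 2 and 3. SREBF1 and ACACA turned to 0.15 by Spearman's rho and ran from -0.37 to 0.032 with 1 calf left out, the latter without heat-stressed calf 4. ACACA and DGAT1 turned to 0.042 by Spearman's rho and 0.30 without the 2 farthest calves, and ran from -0.37 to -0.05 with 1 calf left out. FASN and DGAT1 turned to 0.58 within the cooled calves, against -0.76 within the heat-stressed calves and -0.59 with the pair left out. With 1 calf left out it ran from -0.33 to 0.053, the latter without heat-stressed calf 4. With 1 calf left out ACACA and FASN ran from 0.46 to 0.82, the latter without cooled calf 5 and past the threshold, and r was 0.42 with the pair left out. The FASN ratios kept their sign in all 14 alternatives. The median log2 fold change of all genes moved by less than 0.1 under every scaling. Tests of pathway lists were not run. No paired analysis was possible because calf numbers only name the libraries.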
